A study of Homo sapiens with 2 samples.

Results

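Integrins and laminins are the receptors and the ligands by which cells hold on to basement membranes. The genes described here are those whose symbol in the deposited annotation of the array names an integrin alpha chain (ITGA), an integrin beta chain (ITGB) or a laminin alpha, beta or gamma chain (LAMA, LAMB, LAMC). The symbol rule gave 38 genes with 58 probes, out of 34757 gene symbols and 58199 probes on the array. They comprised 18 integrin alpha genes, 8 integrin beta genes and 12 laminin genes. The rule itself uses no measured value, but it was chosen with earlier results of these data known.

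The measurements came from A375, an established line of human malignant melanoma, grown with serum and transfected with siRNA, a short RNA duplex that directs the degradation of mRNAs it matches. One culture received siRNA against THOC2, a subunit of the THO complex that couples transcription to mRNA export (si-THOC2), and the other received a control siRNA (NC). Total RNA was taken at 48 h and hybridized to 1 one-colour Agilent SurePrint G3 array per condition. Each condition was thus 1 culture of 1 cell line, and there was no replicate. Every difference given here is between these 2 arrays, with no test and an unknown spread between cultures. The paper lists several THOC2 siRNAs, and which was used for the array is not stated. For both samples the source field names the opposite condition from the title and description, which were followed. The mRNA of THOC2 gave 136 (NC) and 40.9 (si-THOC2) at one probe and 67.3 and 35.1 at the other, log2 fold changes of -1.42 and -0.63. All directions below rest on that assignment.

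An integrin is a pair of 1 alpha and 1 beta chain that spans the plasma membrane, binds matrix proteins or counter-receptors outside the cell and is tied to actin or intermediate filaments inside it. The alpha chain largely sets what is bound: some alpha chains bind laminins, others collagens, others proteins with an RGD motif such as fibronectin and vitronectin, and a further set is typical of leukocytes. Laminins are trimers of 1 alpha, 1 beta and 1 gamma chain that build the sheet of the basement membrane, and in melanoma integrins are known as carriers of attachment, migration and spread.

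The values below are processed signals, which are spot intensities after background subtraction, in arbitrary units. The log2 fold change of a probe is the difference of its log2 signals, si-THOC2 minus NC, after each array was reduced by its 75th percentile. That percentile was 6.62 (NC) and 6.31 (si-THOC2) on the log2 scale, so that a probe with equal raw signals has a log2 fold change of 0.31. Signals are compared between arrays for 1 probe and never between probes, since probes differ in how well they bind. The scanner software marks probes whose signal is well above background, and the lowest signal so marked was 14.7 (NC) and 15.9 (si-THOC2). No spot was saturated. A technical SD of the log2 fold change was taken from probes spotted several times, as the median SD among repeated probes of like signal. It was 0.06 where the mean log2 signal was over 8, 0.11 between 6 and 8, 0.29 between 4 and 6 and 0.44 under 4, the last 2 from 6 and 14 repeated probes, and it does not include differences between cultures.

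The melanocytic markers were only partly present in these cells. Of 8 such genes, 5 were measured, with SOX10, a transcription factor of the neural crest lineage, at 6196 with NC and 5196 with si-THOC2. MITF, the master regulator of melanocytes, was also well above background on both arrays. The pigment genes PMEL, TYR and TYRP1 were below background on both, whereas DCT, an enzyme of melanin synthesis, gave 18.0 and 24.4 for a log2 fold change of 0.75. MLANA, a melanosome antigen, was above background with si-THOC2 only (2.94 and 18.7, at least 1.58-fold higher). S100B, a calcium-binding protein of neural crest cells, gave 199 and 102 for a log2 fold change of -0.66.

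Of the 58 probes, 40 were well above background on at least 1 array, which is 69.0% against 43.5% of all probes, and they stood for 31 of the 38 genes. Both arrays measured 36 probes of 28 genes. ITGA4, LAMA3 and 1 of the probes of ITGAX were well above background with NC only, and LAMC3 was so with si-THOC2 only. Every probe of 7 genes stayed below background on both arrays. These were ITGA2B (the platelet fibrinogen receptor), ITGA8 (RGD-binding), ITGAD, ITGAL and ITGAM (leukocyte chains), ITGB6 (an epithelial partner of the alpha-V chain) and LAMB4. Of 4 platelet markers, GP9 alone was measured, at 26.4 and 26.2. For the 7 genes, transcripts were not detectable by these probes, and no fold is given.

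**Figure D1:**
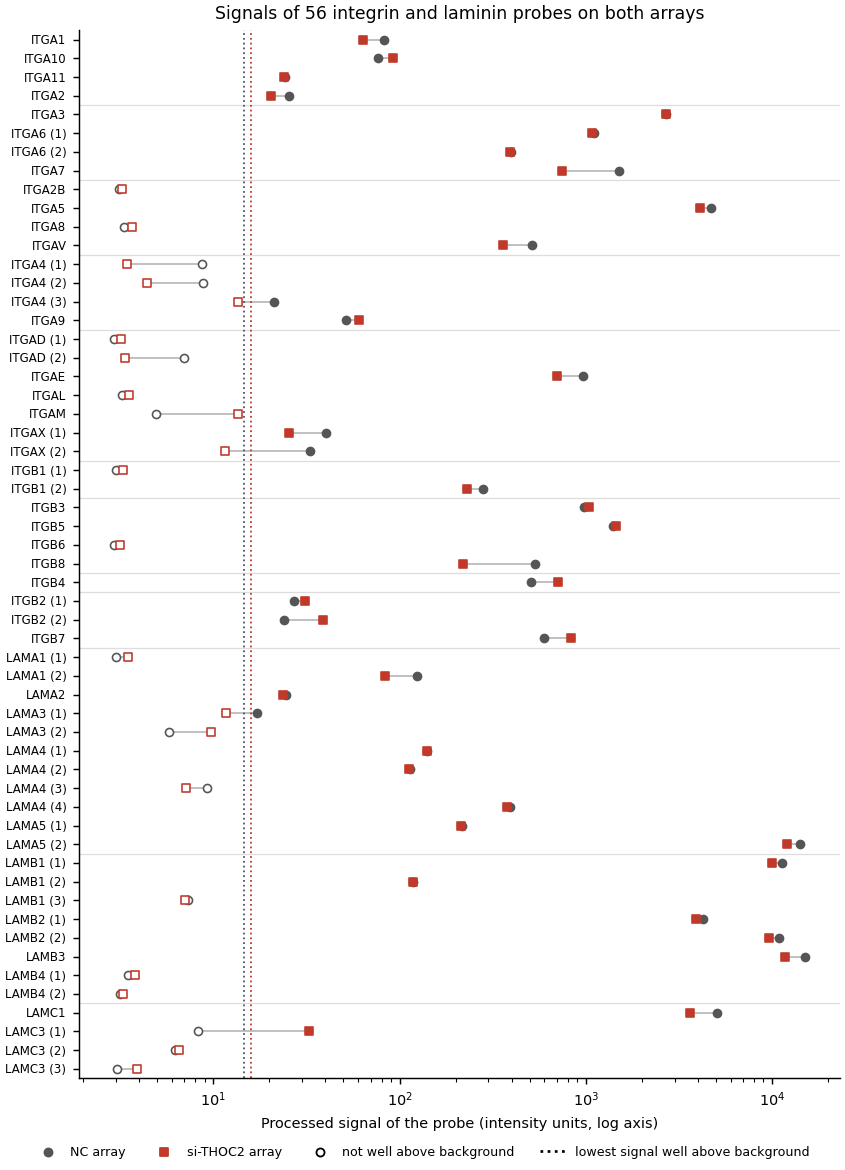
Processed signal (intensity units, log axis) of 56 of the 58 probes on the NC array (circles) and the si-THOC2 array (squares), with horizontal lines at breaks between roles and numbers in brackets for the probes of 1 gene. Open symbols were not well above background, the dotted lines mark the lowest signal well above background (14.7 with NC, 15.9 with si-THOC2), and most pairs of filled symbols lie close together, with ITGB8 and ITGA7 among those far apart.

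At a threshold of 2-fold, 1 of the 40 measured probes was lower with si-THOC2 (2.5%), beside 3.33% of all 25345 measured probes. Higher by 2-fold were 2 probes (5%), beside 2.93% of all. The lower probe was one of ITGAX, and the higher probes belonged to ITGB2 and LAMC3. Among the 36 probes well above background on both arrays, 0 were lower (0.365% of all 22207 such probes) and 1 was higher, that of ITGB2 (0.829% of all). With dim signals raised to the lowest signal well above background, 0 were lower (0.888% of all) and 2 were higher (1.88% of all). With so few calls, these shares differ from the background by 1 or 2 probes.

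At 1.5-fold, 3 of the 40 probes were lower (7.5%, beside 7.69% of all) and 5 were higher (12.5%, beside 6.14% of all). The 36 probes on both arrays held 2 that were lower, those of ITGB8 and ITGA7, or 5.56% beside 2.94% of all. They held 4 that were higher, those of ITGB2, ITGB4, ITGB7 and ITGA10, or 11.1% beside 3.84% of all. With normexp background correction ITGB4 and ITGB7 were both at 0.62. The probe of ITGB2, at 0.37, and that of ITGA10, at 0.35, were then below 1.5-fold.

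The middle of the group lay above that of the array. The median log2 fold change was 0.26 for the 36 probes and 0.04 for all 22207, and 26 of the 36 (72.2%) were above 0, against 56.9% of all. The quartiles of the group were -0.02 and 0.31, those of all probes -0.13 and 0.21. By class, the median was 0.11 over 13 integrin alpha probes (from -0.71 to 0.59), 0.46 over 8 integrin beta probes (from -0.98 to 1.01) and 0.25 over 15 laminin probes (from -0.26 to 0.31). The integrin chains thus held both ends of the range, while 8 of the 15 laminin probes lay between 0.25 and 0.31, with raw signals nearly equal on both arrays. Among probes with a mean log2 signal over 8, where the technical error was smallest, the medians lay closer together. The median was 0.16 for the 20 integrin and laminin probes and 0.06 for all 10015 probes of that signal. The SD was 0.42 across the 20 probes, against 0.23 across the 10015. The 36 probes stand for 28 genes, so some genes count more than once in the medians.

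**Figure D2:**
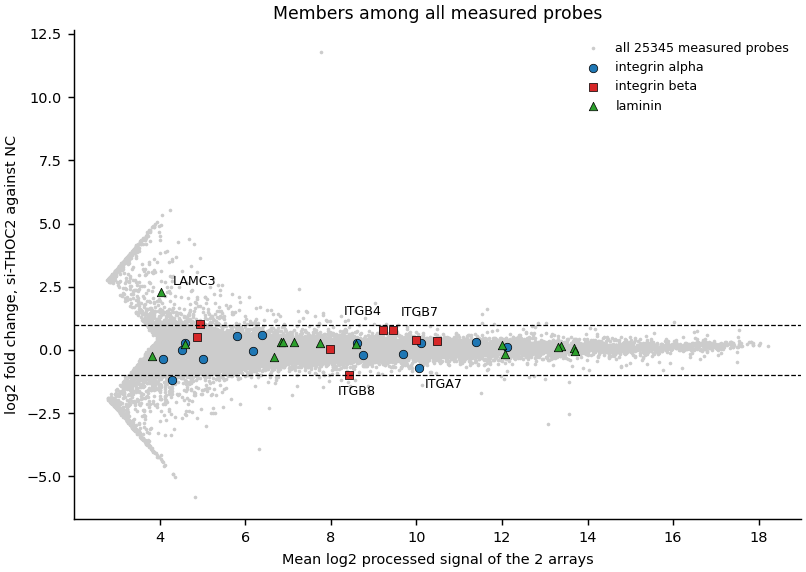
Log2 fold change (si-THOC2 against NC) against the mean log2 processed signal of both arrays for all 25345 measured probes (grey) and for the integrin alpha (circles), integrin beta (squares) and laminin (triangles) probes reported here, with dashed lines at 2-fold. ITGB8 (-0.98), ITGA7 (-0.71), ITGB4 (0.80) and ITGB7 (0.78) lie at the edge of the grey cloud at their signal, while LAMC3 (2.30) lies at low signal, where the cloud is wide.

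The alpha-V chain, ITGAV, forms receptors for vitronectin, fibronectin and latent TGF-beta with several beta chains. It was the member with the most repeated spots. With NC its 10 spots ran from 501 to 537 with a median of 516, and with si-THOC2 its 8 spots ran from 349 to 367 with a median of 360. After scaling, the mean log2 signal was 2.40 ± 0.03 (SD, 10 spots) with NC and 2.18 ± 0.03 (SD, 8 spots) with si-THOC2. All 8 si-THOC2 spots lay below every NC spot, a log2 fold change of -0.22. That difference exceeded the spread within the arrays but was modest among genes, since 13.3% of 2567 probes of like signal were as low.

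The beta chains that pair with ITGAV differed in direction. ITGB8, whose pairing with alpha-V activates latent TGF-beta, gave 532 on the NC array and 218 on the other, for a log2 fold change of -0.98 with a technical SD of 0.06. This was the lowest value among the 36 probes, just short of 2-fold, and 0.343% of 2626 probes of like signal were as low. Its probe lies on the plus strand of chromosome 7 at 7p21.1 (chr7:20455137-20455196, hg19), and in its block of the array, 1 of 128 blocks of neighbouring spots, 8.37% of 203 measured probes were lower by 2-fold and 7.39% were higher. A part of place on the array was not tested, and after each block was centred on its own median the value was -1.03.

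ITGB3, the beta chain of the vitronectin receptor that is known from invasive melanoma, had signals of 975 and 1045, a log2 fold change of 0.41. ITGB5, another vitronectin-binding partner, had 1393 and 1451, a log2 fold change of 0.37. Both had raw signals slightly higher with si-THOC2, and 3.96% and 5.82% of probes of like signal were as high. The RGD-binding ITGA5, the alpha chain of the fibronectin receptor, gave 4720 and 4116 for a log2 fold change of 0.11, and between -0.03 and 0.12 under other settings.

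ITGB1, the chain shared by most integrins that bind matrix, was measured by 1 of its 2 probes. The 9 spots with NC ran from 265 to 292 with a median of 281, and the 7 spots with si-THOC2 ran from 222 to 241 with a median of 232. After scaling, the means were 1.51 ± 0.05 (SD, 9 spots) and 1.54 ± 0.04 (SD, 7 spots), so the ranges overlapped and the log2 fold change was 0.03. The chain common to most of these receptors thus did not differ by more than the spread of its own spots, and the value of this probe lay between -0.05 and 0.03 across settings. Its probe, shown because it carried these repeated spots, lies at chr10:33200507-33200566 on the minus strand (hg19), and the probe of ITGB5 at chr3:124482491-124482550, also on the minus strand. The sequences are those of the deposited annotation, 5′ to 3′, with no base set apart in capitals.
ITGB1: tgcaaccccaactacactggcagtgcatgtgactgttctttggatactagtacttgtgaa
ITGB5: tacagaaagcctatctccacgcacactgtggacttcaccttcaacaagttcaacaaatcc
The ITGB1 probe and the ITGB5 probe each lie in 1 unbroken stretch of 60 bases, with 27 G or C bases (45.0%) in both.

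**Figure D3:**
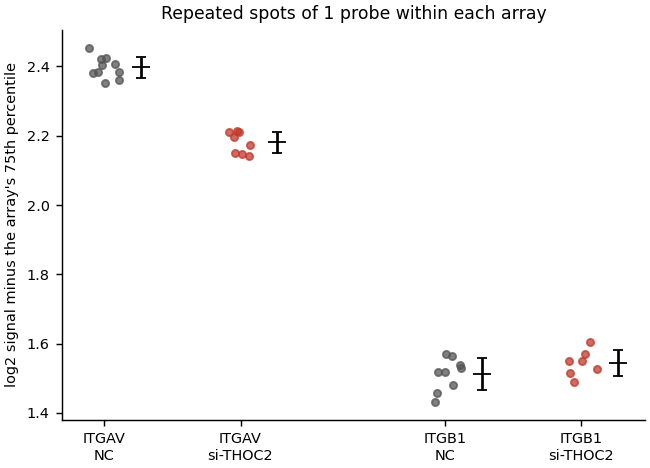
Scaled log2 signal (log2 processed signal minus the array's 75th percentile) of each spot of the repeated probes of ITGAV and ITGB1 on both arrays, with the mean and SD of the spots at the side. The spots of ITGAV do not overlap between the arrays (2.35 to 2.45 with NC, 2.14 to 2.21 with si-THOC2), and those of ITGB1 do (1.43 to 1.57 and 1.49 to 1.60).

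The alpha chains that bind laminins did not move as 1 group. ITGA7, a laminin receptor best known from muscle, gave 1515 on the NC array and 749 on the other, for a log2 fold change of -0.71 with a technical SD of 0.06. Only 0.506% of 1978 probes of like signal were as low. Its probe lies on the minus strand at 12q13.2 (chr12:56078420-56078479, hg19).

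ITGA3, a main receptor for the laminins of epithelial basement membranes, had nearly equal raw signals of 2692 and 2684, a log2 fold change of 0.31. ITGA6, which binds laminin with either the beta-1 or the beta-4 chain, had 1109 and 1080 at one probe and 395 and 390 at the other, log2 fold changes of 0.27 and 0.29. The paired values of ITGA6 thus differed by 0.02.

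ITGB4 pairs with ITGA6 in the hemidesmosome, the junction that anchors intermediate filaments to laminin. It gave 506 on the NC array and 711 on the other, for a log2 fold change of 0.80 with a technical SD of 0.06, and 0.338% of 2368 probes of like signal were as high. In its block 2.63% of 190 measured probes were higher by 2-fold and 9.47% were lower, and a part of place on the array was not tested. The probe lies on the plus strand of chromosome 17 at 17q25.1 (chr17:73753824-73753883, hg19).

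Keratinocyte genes, in which the hemidesmosome is typical, were mostly undetected. Of 7 such markers 2 were measured, KRT10 and KRT14, and their list summed to 32417 with NC and 20771 with si-THOC2, nearly all of it KRT10. KRT14, a basal keratin, had 83.9 and 104 at the probe well above background on both arrays, a log2 fold change of 0.62, and 11.9 and 26.9 at a probe above background with si-THOC2 only, at least 2.28-fold higher. Its mean of 1.06 passed 2-fold only through the second probe, whose NC signal was below background, while KRT10 was at -0.34. KRT5, TP63 and CDH1, the defining genes of basal keratinocytes and epithelium, were below background on both arrays.

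The collagen-binding chains were measured at low signals. ITGA10, a collagen receptor of cartilage, gave 76.5 and 92.6, for a log2 fold change of 0.59 with a technical SD of 0.11, and 3.63% of probes of like signal were as high. ITGA1 had 82.2 and 63.7, a log2 fold change of -0.06. The difference of ITGA10 exceeded its technical SD, and that of ITGA1 did not.

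ITGA2 had 25.5 and 20.45, a log2 fold change of -0.01, and ITGA11 had 24.3 and 23.9, a log2 fold change of 0.29, both with a technical SD of 0.29. Of the alpha chains that bind VCAM1 and tenascin, ITGA9 had 51.8 and 60.7, a log2 fold change of 0.54 with a technical SD of 0.29. ITGA4 was well above background with NC only, at 21.2 against 13.5, and was at least 1.08-fold lower with si-THOC2, while neither of its other probes was detected. Among these chains, ITGA10 and ITGA9 differed by more than their technical SD, and ITGA11 by about as much as it. The sign of ITGA2 and ITGA4 changed with the setting (-0.04 to 0.07 and, at the probe measured with NC, -0.37 to 0.01).

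Chains typical of leukocytes gave mixed values. ITGB7, which pairs with ITGA4 or ITGAE in lymphocytes that home to the gut, was well above background on both arrays. It gave 598 on the NC array and 829 on the other, for a log2 fold change of 0.78 with a technical SD of 0.06, and 0.444% of 2254 probes of like signal were as high. The probe lies on the minus strand at 12q13.13 (chr12:53585157-53585216, hg19). In its block 5.61% of 214 measured probes were higher by 2-fold and 3.74% were lower, and the part of that block was not tested. ITGAE, the partner of ITGB7 that binds E-cadherin, had 967 and 702, a log2 fold change of -0.15, and 15.5% of 2148 probes of like signal were as low. The chains of that pair thus lay on opposite sides of 0.

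ITGB2, the beta chain common to most leukocyte integrins, was measured by 2 probes at low signal. One gave 23.9 on the NC array and 39.0 on the other, for a log2 fold change of 1.01, and the second gave 27.2 and 31.1, for 0.51, each with a technical SD of 0.29. Both were higher, but they differed by 0.51, the widest gap among the 7 integrin and laminin genes with several probes on both arrays. Of probes of like signal, 2.73% were as high as the first and 14.1% as high as the other. The first is the only probe of the group that passed 2-fold on both arrays, and so its sequence is shown.
ITGB2: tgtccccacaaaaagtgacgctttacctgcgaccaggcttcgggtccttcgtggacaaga
Its 60 bases, 33 of them G or C (55.0%), are placed on the minus strand from end to end over 5241 bases of chromosome 21 (chr21:46321625-46326865, hg19), so it reads across at least 1 splice junction and would not match the unspliced gene in 1 stretch. The other probe lies near the end of the gene (chr21:46305926-46305985, hg19). The antisense gene ITGB2-AS1 was below background on both arrays at both of its probes. With normexp background correction, the value of the spliced probe was 0.37.

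ITGAX, the alpha chain of a complement receptor of myeloid and dendritic cells, went the other way. One probe gave 40.4 on the NC array and 25.4 on the other, for a log2 fold change of -0.36 with a technical SD of 0.29. The other had 32.9 and 11.6, was well above background with NC only, and had a log2 fold change of -1.20, which amounts to at least 1.68-fold lower. Its block held 5.53% of probes lower by 2-fold and 9.68% higher. Both probes of ITGAX were lower and both of ITGB2 higher, although the 2 chains form 1 receptor in leukocytes. With normexp background correction the ITGAX probes were at -0.05 and -0.19.

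Leukocyte markers were measured beside these chains. Of 7 such genes 6 were found on the array by symbol and 5 passed that mark on both arrays, with summed signals of 1320 (NC) and 1096 (si-THOC2), most of it CD79A. PTPRC, the common leukocyte antigen, had 27.4 and 28.9 at 1 of its 5 probes and was below background at the others. SPI1, a myeloid transcription factor, had 30.4 and 50.1, a log2 fold change of 1.03, and CD3E, a chain of the T cell receptor complex, had 25.3 and 37.4, a log2 fold change of 0.87. CD79A, a chain of the B cell receptor complex, was at -0.04, and PTPRC and CD14 were at 0.39 and 0.37, with nearly equal raw signals. SPI1 and CD3E, the highest of the 5 measured markers, were dim, each with a technical SD of 0.29. Their part in the value of ITGB2 was not tested.

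**Figure D4:**
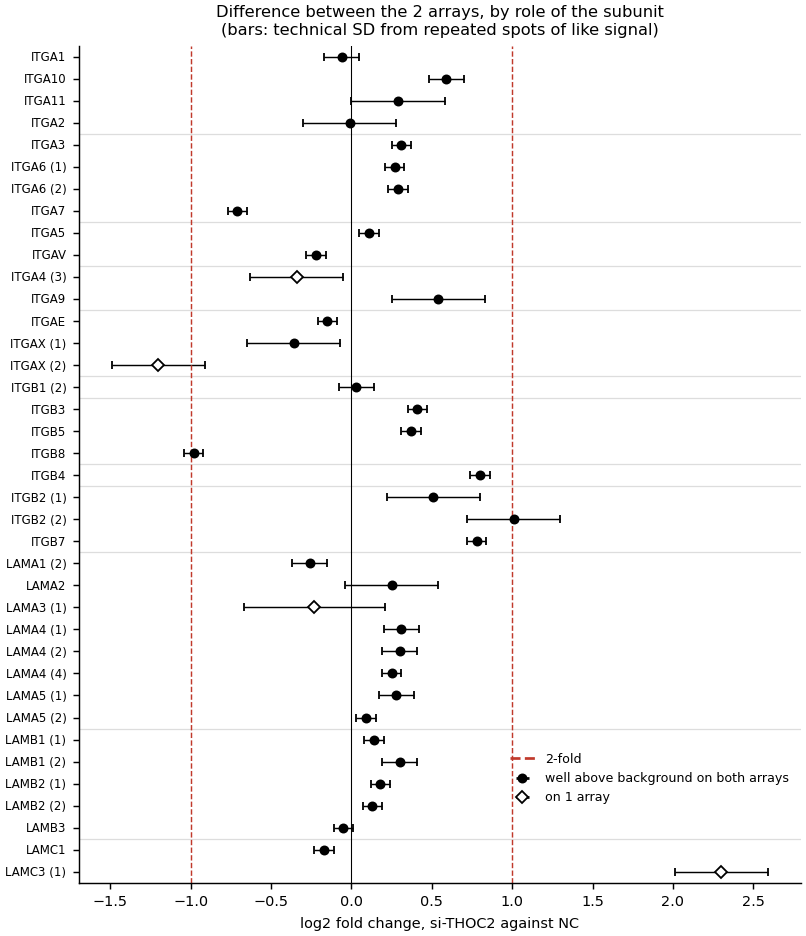
Log2 fold change (si-THOC2 against NC) of 38 of the 40 measured probes in order of role, with bars for the technical SD from repeated spots of like signal and dashed lines at 2-fold. Filled circles stand for probes measured on both arrays and open diamonds for those measured on 1 array, where the true difference is known only as a bound, and the integrin rows spread from -1.20 (ITGAX) to 1.01 (ITGB2) while the laminin rows, LAMC3 apart, stay between -0.26 and 0.31.

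Laminin alpha chains set the tissue and the receptor that a laminin binds. LAMA4, the alpha chain of vessel walls and of mesenchymal basement membranes, was measured by 3 probes. Their signals were 141 and 141, 114 and 113, and 392.4 and 377.8, with log2 fold changes of 0.31, 0.30 and 0.25, while another probe was below background. The first pair of probes lies at separate places on the minus strand of chromosome 6 (chr6:112506440-112506499 and chr6:112537570-112537629, hg19). The pair was picked for its close values, which were 0.16 and 0.19 with normexp background correction, and is shown in this order.
LAMA4: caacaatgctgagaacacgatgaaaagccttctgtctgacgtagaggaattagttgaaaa
LAMA4: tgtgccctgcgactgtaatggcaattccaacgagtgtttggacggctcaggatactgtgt
The probes hold 24 and 31 G or C bases (40.0% and 51.7%). Endothelial markers, typical of vessel walls, were near background: 3 of 5 genes were measured and 1 of them, PECAM1, on both arrays (16.2 and 17.6, a log2 fold change of 0.43), with CDH5 at 17.0 and 5.40 and VWF at a mean of -0.40, both with NC only, and summed signals of 92.7 (NC) and 76.3 (si-THOC2).

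LAMA5, the alpha chain of most adult basement membranes, gave 14076 and 12090 at one probe and 218 and 214 at the other, log2 fold changes of 0.09 and 0.28. LAMA1, the chain of the early embryo, had 124 and 83.5 at its measured probe, a log2 fold change of -0.26 with a technical SD of 0.11. LAMA2, the chain of muscle and nerve, had 24.6 and 23.5, a log2 fold change of 0.25 with a technical SD of 0.29. Of the laminin alpha probes on both arrays, 6 of 7 were thus above 0, with LAMA1 the exception. LAMA3, the alpha chain of the epidermal basement membrane, had 17.1 with NC, well above background, and 11.7 with si-THOC2, and it has no fold, because after scaling the lowest signal well above background on the si-THOC2 array was not below the NC signal.

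Laminin beta chains stayed within a narrow range. LAMB1 had 11250 and 10016 at one probe and 118 and 118 at another, log2 fold changes of 0.14 and 0.30. LAMB2, the beta chain of the neuromuscular junction and the kidney filter, had 4262 and 3889 at one probe and 10863 and 9592 at the other, log2 fold changes of 0.18 and 0.13. LAMB3, which joins LAMA3 in the epidermal laminin, had 15041 and 11704, a log2 fold change of -0.05. The 5 beta probes thus lay between -0.05 and 0.30.

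Among laminin gamma chains, LAMC1, the gamma chain of most laminins, gave 5076 on the NC array and 3646 on the other, for a log2 fold change of -0.17, and 8.00% of probes of like signal were as low. Its raw signal was thus lower with si-THOC2, and its scaled value differed by more than the technical SD of 0.06.

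LAMC3, a gamma chain of a restricted set of laminins, had the largest value among the 40 measured probes. One probe gave 8.25 on the NC array, below background, and 32.8 on the other, for a measured log2 fold change of 2.30, which amounts to at least 2.78-fold higher. Neither of the other 2 LAMC3 probes was detected on either array. In the block that holds the probe, 19.9% of 226 measured probes were higher by 2-fold, against 2.93% over the whole array, and the part of that block in the value was not tested. With normexp background correction the log2 fold change was 0.65.

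Where several probes of a gene were well above background on both arrays, their values lay close together. Over the 7 such integrin and laminin genes the range among probes had a median of 0.05 and ran from 0.02 in ITGA6 to 0.51 in ITGB2, and over all 3718 such genes the median range was 0.20.

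The members are spread over the genome. Chromosome 17 holds 5 of the genes, and chromosomes 1, 2 and 16 hold 4 each. The 4 genes on chromosome 16, all at 16p11.2, are the leukocyte chains ITGAD, ITGAL, ITGAM and ITGAX, of which ITGAX alone was measured. On chromosome 12, ITGA7 (-0.71), ITGB7 (0.78) and ITGA5 (0.11) lay within 12q13, with values on both sides of 0.

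Genes that work with integrins were compared as 4 lists, in which a gene's value is the mean over its measured probes. Over all 17514 genes with a measured probe the median was 0.02, 3.34% were lower by 2-fold and 2.96% were higher. The adhesion linkers tie integrin tails to actin and signal from them. Of 30 such genes 28 were measured, 0 were lower and 0 were higher by 2-fold, the median was 0.16 (0.07 with normexp background correction and 0.08 with centring by block), and 20 were above 0.

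TNS1 and TNS4, tensins that bind beta chain tails, and NEDD9, a docking protein known from melanoma invasion, had the largest differences among the linkers. TNS1 gave 22.02 on the NC array and 34.0 on the other, for a log2 fold change of 0.94, and TNS4 gave 25.4 and 35.2, for 0.78. NEDD9 had 53.5 and 25.4 at the probe measured on both arrays, a log2 fold change of -0.77. All 3 were dim, with a technical SD of 0.29, and tensins and NEDD9 lay on opposite sides of 0.

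The membrane partners, mostly tetraspanins that sit beside integrins, were all measured, 9 of 9, with a median of 0.07, which was -0.01 with lowess centring. They ran from -0.39 for CD82 (860 and 529), a tetraspanin known as a suppressor of metastasis, to 0.36 for CAV1, with CD9 at 0.21. None was lower or higher by 2-fold.

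The cell surface ligands of integrins, mostly ICAMs and junctional adhesion molecules, were measured for 7 of 10 genes with a median of -0.31, which was -0.17 with normexp background correction and -0.14 without a detection filter. ICAM4, a ligand of several integrins described on red cells, was lower by 2-fold, with 637 and 226 and a log2 fold change of -1.18. JAM2, which binds leukocyte integrins, had a mean of -0.70 over 3 probes, 1 of them above background with NC only, and L1CAM, which binds the alpha-V and alpha-5 receptors, had a mean of 0.48. This was the only one of the 4 lists whose median lay below 0.

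Basement membrane partners and other laminin receptors were found on the array for 10 of 11 genes and measured for 8, with a median of 0.12, which lay between 0.03 and 0.06 under quantile normalization, lowess centring, normexp, centring by block and the authors' values. NTN4, a netrin that binds laminin gamma chains, was higher by 2-fold, with 26.5 and 62.4 and a log2 fold change of 1.54. Its probe was dim, with a technical SD of 0.29. In the block of that probe 4.69% of 213 measured probes were higher by 2-fold, against 2.93% over the whole array. HSPG2, the proteoglycan perlecan, had a mean of -0.73 that rested on a probe above background with NC only, and its probe measured on both arrays had 5199 and 3819, a log2 fold change of -0.14. SDC1, a heparan sulfate proteoglycan of the cell surface, was at 0.27.

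**Figure D5:**
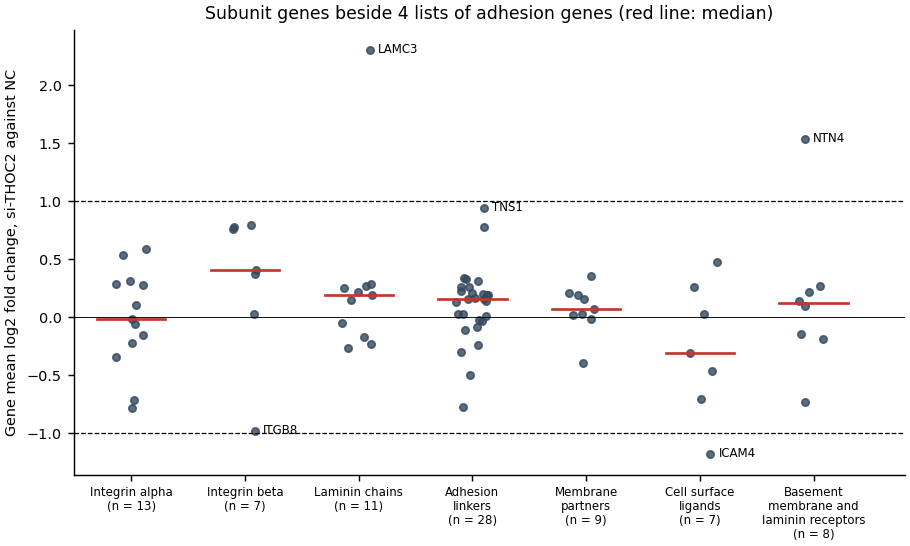
Gene mean log2 fold change (si-THOC2 against NC) of each measured gene among the integrin alpha, integrin beta and laminin genes and in the 4 lists of adhesion genes, with the median of each as a line, the number of measured genes under each name and dashed lines at 2-fold. Beyond or near 2-fold lie LAMC3 (2.30), NTN4 (1.54), TNS1 (0.94), ITGB8 (-0.98) and ICAM4 (-1.18), and the medians of the beta chains and of the cell surface ligands lie on opposite sides of 0.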

How the data were processed

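RNA of 1 NC culture and 1 si-THOC2 culture of A375 was measured on 1 array each. The authors deposited the scanner output, in which the processed signal of each spot is an intensity after background subtraction and detrending (Agilent Feature Extraction 10.7.1.1 in the submitters' processing notes, annotation on hg19). They also deposited normalized log2 values with equal distributions on both arrays, used here as an alternative and for probe names, positions and sequences. A deposited comparison table, with the authors' fold changes, was not used.

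Control spots and outlier spots (147 with NC and 168 with si-THOC2) were left out, and repeated spots were combined as a mean of log2 signals. A probe was compared if well above background on at least 1 array and called at 2-fold. Where only 1 array measured it, the bound is the ratio, after scaling, of the measured signal to the dim array's own signal or its detection limit (the lowest signal so marked), whichever was higher. Probes of like signal are those within 0.5 of the mean log2 signal. Of all probes, 42.3% were well above background with NC and 39.4% with si-THOC2. The number of arrays limits the precision.

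Every member with a measured probe was named, apart from 1 gene that is counted but not reported here, and of each of the 4 pathway lists the 3 genes with the largest difference and those called. Markers were named to check cell types. Older symbols were matched through the RefSeq gene table. Members and lists were chosen with earlier results of these data known. The alternatives were other scalings (quantile normalization, median, lowess with a span of 0.3), normexp with an offset of 50, other detection rules, dim signals at their limit, the authors' log2 values, centring in 128 blocks and a fold of 1.5. The comparison was tested on simulated data. Python 3.11.15 (numpy 2.4.6, pandas 2.3.3, scipy 1.17.1, statsmodels 0.14.6, matplotlib 3.10.9) and R 4.3.3 with limma 3.58.1 were used. Exons and UTRs were not analysed here.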

Additional observations from a re-analysis of the deposited data

How the results depend on the processing

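With normexp background correction, which pulls dim probes towards each other, 0 integrin and laminin probes were lower and 0 higher by 2-fold, and the median log2 fold change of the measured probes was 0.12 instead of 0.25. With probes on both arrays only, 0 were lower and 1 was higher. Without a detection filter 2 were lower and 4 higher, with dim signals at their limit 0 were lower, with centring by block 2 were lower (ITGB8 joined, at -1.03), and at a fold of 1.5 the counts were 3 and 5. In the other settings the counts stayed within 1.5 times. In every setting but normexp the median lay between 0.22 and 0.28. Of the 31 measured genes, 25 kept their sign in all alternatives run (9, or 8 for LAMC3, which has no value on both arrays). ITGA2, ITGA4, ITGA5, ITGB1, LAMA1 and LAMA3 did not in at least 1. For ITGB1 this was normexp, at -0.05. For LAMA1 it was the setting without a detection filter, where its gene mean of 0.13 included a probe below background. The median of the membrane partners was -0.01 with lowess centring, and the medians of the other pathway lists kept their sign but shrank, with normexp to 0.07 (linkers), 0.03 (basement membrane partners) and -0.17 (surface ligands). ITGB8 ran from -0.89 to -1.03. Cultures were not replicated, so no result has a replicate check, and dim probes, LAMC3 among them, rest on signals near background. No paired analysis was possible because there was 1 array per condition.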
